A study of Mus musculus with 12 samples.

Results

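The 6 genes described here encode metabotropic glutamate receptors: Grm2, Grm3, Grm4, Grm5, Grm7 and Grm8. They were taken by symbol from 50600 Ensembl gene identifiers, each symbol belonged to 1 identifier, and all 6 had enough counts to be tested, as had 17847 genes in all. The cerebral cortex of C57BL/6 mice was taken at 3 prenatal ages (E11, E13 and E17, in days of embryonic life) and on postnatal day 1 (P1), and its poly(A)+ RNA was sequenced. Each age has 3 libraries, called A, B and C, and each of them holds the cortex of a single animal from a litter of its own. The labels name no mutant allele, treatment or sex for any group. The libraries held 28173745 to 45858712 counts.

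Glutamate acts on ion channels that open within milliseconds and on metabotropic receptors, which sit in the membrane and signal through G proteins. Group I receptors couple to Gq, which activates phospholipase C and releases calcium from internal stores, and in the forebrain they lie mostly beside the postsynaptic density. Group II and group III receptors couple to Gi/o, which inhibits adenylyl cyclase, and many of them sit on axon terminals and reduce transmitter release. Of the members, Grm5 is a group I receptor, Grm2 and Grm3 belong to group II, and Grm4, Grm7 and Grm8 to group III. Grm6, the group III receptor of retinal bipolar cells, had 10 counts over the 12 libraries and was too low to test.

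Promoter sequences from RefSeq (build GRCm38.p6), from 250 bases before to 50 bases after an annotated start, matched 4 of the 6 members. Those of Grm2, Grm3 and Grm7 are shown because Grm2 and Grm3 form the group II pair and Grm7 was the receptor gene whose time course was nearest to that of Grm3. Each is read 5′ to 3′ on the gene's own strand, and capitals mark the letters TTCAGCACC and GGACAGC, which are the left and right parts of RE1, the element bound by the neuronal gene repressor REST, and GGGCGG, the GC box. These motifs were chosen after the Grm2 sequence had been read, and both strands were searched.
Grm2, chr9:106656060-106656359, minus strand: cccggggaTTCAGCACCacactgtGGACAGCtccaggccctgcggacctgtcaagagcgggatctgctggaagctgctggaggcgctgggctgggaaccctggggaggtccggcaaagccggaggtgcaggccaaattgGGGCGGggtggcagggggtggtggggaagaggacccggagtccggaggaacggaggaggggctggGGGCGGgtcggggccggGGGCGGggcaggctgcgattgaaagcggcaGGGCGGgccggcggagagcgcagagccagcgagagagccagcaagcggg
Grm3, chr5:9725303-9725602, minus strand: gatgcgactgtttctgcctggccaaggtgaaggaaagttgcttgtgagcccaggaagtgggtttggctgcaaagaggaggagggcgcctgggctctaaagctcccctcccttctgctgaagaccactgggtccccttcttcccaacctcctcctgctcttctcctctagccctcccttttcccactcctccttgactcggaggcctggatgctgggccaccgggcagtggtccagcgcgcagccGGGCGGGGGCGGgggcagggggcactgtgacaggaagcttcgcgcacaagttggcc
Grm7, chr6:110645262-110645561, plus strand: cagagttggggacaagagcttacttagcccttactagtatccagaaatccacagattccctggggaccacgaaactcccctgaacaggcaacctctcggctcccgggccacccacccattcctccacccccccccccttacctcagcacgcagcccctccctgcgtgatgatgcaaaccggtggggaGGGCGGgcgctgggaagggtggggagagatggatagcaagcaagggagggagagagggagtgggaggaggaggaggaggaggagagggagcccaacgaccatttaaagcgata
In the Grm2 window TTCAGCACC starts at position 9 and GGACAGC at position 25, counted from 1 at the 5′ end, with 7 bases between them. Over the 32851 promoter windows of the same length, 0.371% held TTCAGCACC, 6.56% held GGACAGC, and 0.0304% held both in this order with 1 to 12 bases between. Neither part was present in the other 6 windows of the members, which include a second start of Grm7 that overlaps the first and 3 starts of Grm8. GGGCGG was present in 5 of the 7 windows, although the overlapping Grm7 windows hold the same copy, and in 35.7% of all windows. It occurred 4 times in Grm2 and 2 times end to end in Grm3, and it did not overlap either RE1 part. The 3 windows shown had a GC content of 72% for Grm2, 63.7% for Grm3 and 61% for Grm7, against a median of 52.7% over all windows. A match of letters is a description and not a binding site, and no binding was measured.

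Levels are given as CPM, counts per 1e6 counts of the library after TMM scaling, which adjusts for differences in composition. Between E11 and P1 the summed level of the 6 receptors went from 6.26 ± 1.21 to 408 ± 17.3 CPM (SD, n = 3 each). It was 12.7 ± 1.2 CPM at E13 and 270 ± 30.3 CPM at E17, so the largest step lay between E13 and E17. All 6 genes differed across the 4 ages in edgeR's quasi-likelihood test, as did 90.2% of all tested genes. By its p-value in that test Grm5 ranked 7 of 17847 genes, Grm7 1116, Grm3 1119, Grm2 1867, Grm8 3743 and Grm4 4866. From bulk tissue, more cells that carry a receptor and more RNA per cell cannot be told apart.

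**Figure D1:**
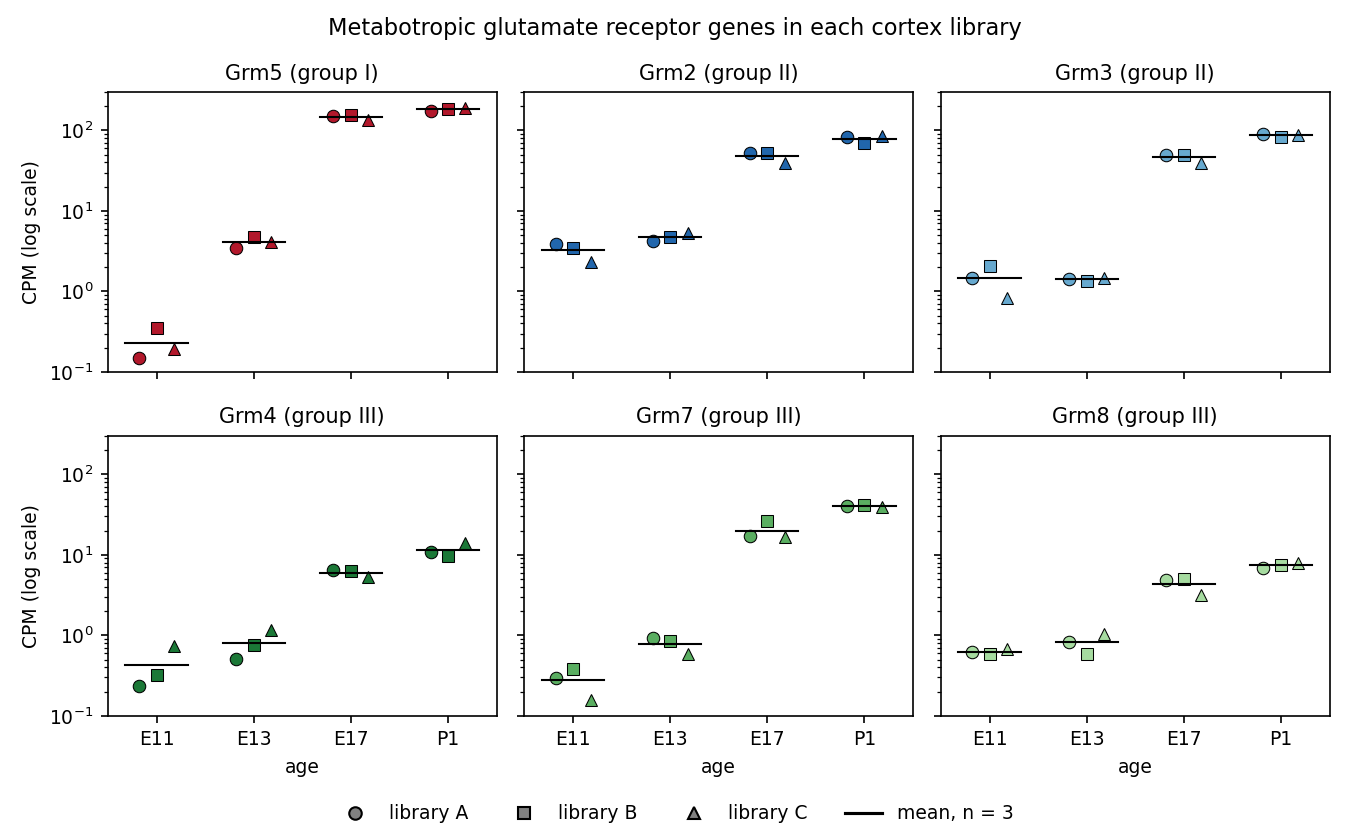
Level of each receptor gene in CPM, on a log axis, in the 12 libraries by age, with 1 symbol per library and a line at the mean of 3. In every panel the E17 and P1 libraries lie above all E11 and E13 libraries, and Grm5 is the gene with the widest span, from 0.148 to 191 CPM.

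Grm5 (ENSMUSG00000049583), the main group I receptor of the forebrain, was nearly undetected at E11, with 5, 12 and 6 counts in libraries A, B and C, or 0.148, 0.354 and 0.191 CPM. At E13 it stood at 3.44, 4.72 and 4.1 CPM, at E17 at 149, 155 and 133 CPM, and at P1 at 173, 185 and 191 CPM. The ages did not overlap at any step. Its log2 fold change was 4.12 ± 0.32 from E11 to E13 (SE; adjusted p = 7.62e-08), 5.16 ± 0.11 from E13 to E17 (adjusted p = 3.3e-12) and 0.33 ± 0.09 from E17 to P1 (adjusted p = 0.00714). From E11 to P1 this came to a log2 fold change of 9.6 ± 0.31, a ratio that rests on 23 counts at E11.

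Grm2 (ENSMUSG00000023192), a group II receptor found mainly on axons and their terminals, was already measurable at E11, at 3.87, 3.48 and 2.33 CPM in libraries A, B and C (131, 118 and 73 counts). It stood at 4.29, 4.69 and 5.37 CPM at E13, at 52.6, 52.4 and 39.4 CPM at E17, and at 82.1, 69 and 86.2 CPM at P1. The E13 libraries lay just above those of E11, while the gap between E13 and E17 was wide. Its log2 fold change was 0.56 ± 0.19 from E11 to E13 (adjusted p = 0.0361), 3.33 ± 0.17 from E13 to E17 (adjusted p = 2.54e-09) and 0.72 ± 0.14 from E17 to P1 (adjusted p = 0.00144). The first of these calls was lost when E11 B, E11 C, E13 B or E13 C was left out (adjusted p = 0.0592, 0.124, 0.0848 and 0.112). Without E11 C the log2 fold change was 0.37.

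Grm3 (ENSMUSG00000003974), the group II receptor that is also carried by glia, showed no change past the threshold between E11 and E13. Its level was 1.48, 2.09 and 0.828 CPM at E11 and 1.43, 1.35 and 1.48 CPM at E13, with the E13 libraries inside the range of E11. The log2 fold change was -0.06 ± 0.26 (adjusted p = 0.881), with a 95% interval of -0.62 to 0.5. It then stood at 50.2, 49.3 and 39.3 CPM at E17 and at 90, 81.7 and 88.2 CPM at P1, with no overlap at either step. The rise from E13 to E17 was 5.02 ± 0.21 on the log2 scale (adjusted p = 2.71e-10), a 32.5-fold change, and that from E17 to P1 was 0.91 ± 0.14 (adjusted p = 0.000293).

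Among the group III genes, which encode presynaptic receptors, Grm7 (ENSMUSG00000056755), known for its place in the active zone, had the highest levels from E17 on. It held 10, 13 and 5 counts at E11 and 35, 30 and 19 at E13, or 0.295, 0.383 and 0.159 and then 0.926, 0.842 and 0.586 CPM. At E17 it stood at 17.2, 26.1 and 16.7 CPM and at P1 at 40.6, 41.3 and 39.6 CPM. All 4 ages were separate, and E17 B lay well above the other E17 libraries. Over the 3 steps its log2 fold change was 1.48 ± 0.39 (adjusted p = 0.00668), 4.65 ± 0.24 (adjusted p = 6.58e-10) and 1.02 ± 0.16 (adjusted p = 2e-04).

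Grm4 (ENSMUSG00000063239), a group III receptor best known from the cerebellum, was at 0.236, 0.324 and 0.733 CPM at E11 and at 0.503, 0.758 and 1.17 CPM at E13. These ranges overlapped, with E11 C between E13 A and E13 B. The log2 fold change of 0.91 ± 0.41 did not pass over all genes (adjusted p = 0.0937; 95% interval 0.01 to 1.8), and it moved both ways with single libraries. It was 1.5 without E11 C (adjusted p = 0.0145) and 1.17 without E13 A (adjusted p = 0.036), but 0.56 without E13 C (adjusted p = 0.326) and 0.61 without E11 A (adjusted p = 0.283). At E17 Grm4 stood at 6.51, 6.27 and 5.23 CPM and at P1 at 10.7, 9.74 and 14 CPM. Both of these steps passed, with log2 fold changes of 2.9 ± 0.31 (adjusted p = 1.65e-06) and 0.94 ± 0.25 (adjusted p = 0.00688).

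Grm8 (ENSMUSG00000024211), the remaining group III receptor, had the lowest mean CPM of the 6 genes at P1. It stood at 0.62, 0.59 and 0.669 CPM at E11 and at 0.82, 0.59 and 1.05 CPM at E13. These ranges overlapped, with E11 A and E11 C between E13 B and E13 A. The log2 fold change of 0.38 ± 0.27 did not pass (adjusted p = 0.277; 95% interval -0.19 to 0.96). Grm8 then stood at 4.81, 4.98 and 3.19 CPM at E17 and at 6.79, 7.42 and 7.95 CPM at P1. Its rises of 2.39 ± 0.22 (adjusted p = 2.94e-07) and 0.78 ± 0.18 on the log2 scale (adjusted p = 0.00324) passed at both steps.

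The first comparison, of E13 with E11, covers early neurogenesis. In it 3 of the 6 genes rose (Grm5, Grm7 and Grm2) and none fell, beside 40.1% of all tested genes that changed, 22.6% that rose and 17.5% that fell. In the same 3 genes every E13 library lay above every E11 library, as in 27.6% of all tested genes. The median log2 fold change of the 6 genes was 0.73, against 0 over all tested genes. The count of changed members moved between 2 and 4 over the alternatives tried.

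The comparison of E17 with E13 spans most of cortical neurogenesis and the migration of neurons to their layers. All 6 genes rose, by 2.39 to 5.16 on the log2 scale with a median of 3.99, and in all 6 the 2 ages did not overlap. Over all tested genes 73.8% changed, 36.8% rose, 37% fell, 37.8% had every E17 library above every E13 library, and the median was -0.04. The genes fell into a higher and a lower set of changes, with Grm5, Grm3 and Grm7 at 4.65 to 5.16 and Grm2, Grm4 and Grm8 at 2.39 to 3.33. The 95% intervals of the first set (lowest bound 4.13) and the second (highest bound 3.69) did not overlap, and neither set follows receptor groups II and III. These sets were formed after the values were seen, and the difference between them was not tested.

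**Figure D2:**
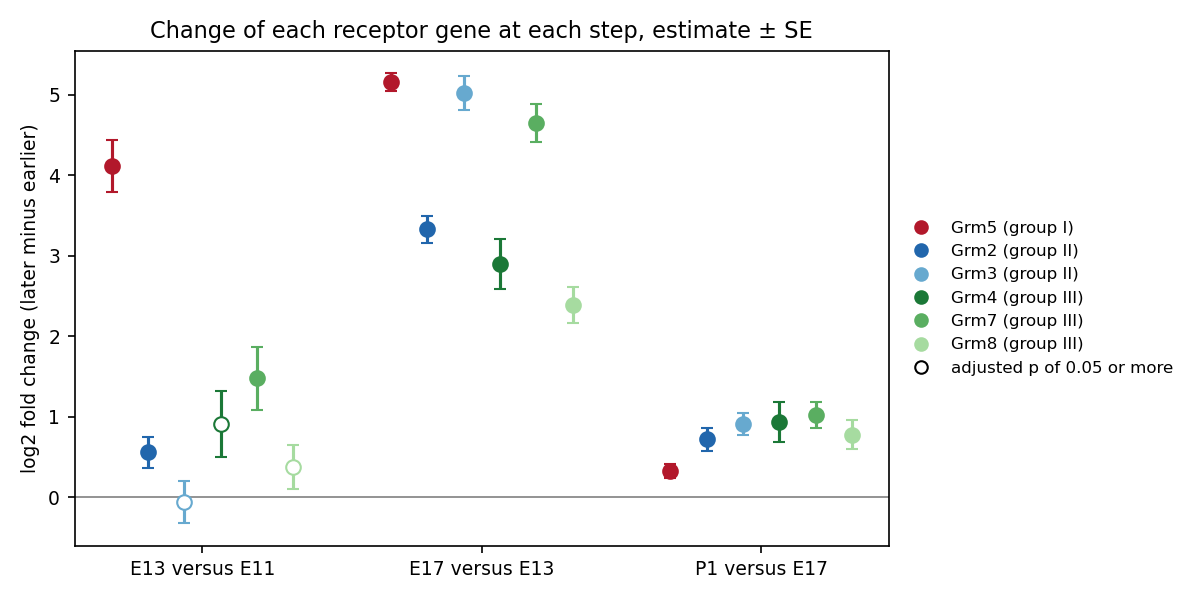
Log2 fold change of each receptor gene from edgeR at the 3 steps between neighbouring ages, later minus earlier, with bars of 1 SE and open symbols where the adjusted p was 0.05 or more. At the step from E11 to E13 Grm5 stands apart at 4.12, at the step from E13 to E17 all 6 genes lie above 2, and at the last step they lie between 0.33 and 1.02.

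The comparison of P1 with E17 covers birth. Again all 6 genes rose and all 6 were without overlap, beside 49.9% of all tested genes that changed, 24% that rose, 25.9% that fell and 30.9% with every P1 library above every E17 library. The log2 fold changes were smaller, 0.33 to 1.02 with a median of 0.85. The change of Grm5 was the smallest, with a 95% interval of 0.14 to 0.52 that lay below that of Grm3 (0.59 to 1.22) and Grm7 (0.68 to 1.36) and reached into those of Grm2 (0.4 to 1.03), Grm4 (0.41 to 1.47) and Grm8 (0.39 to 1.18). E17 C, the library with the most counts, had the lowest E17 level of all 6 genes. Its summed level of intermediate progenitor markers was 354 CPM, against 270 and 233 CPM in E17 A and B, and its oligodendrocyte lineage sum was 139 CPM, against 182 and 207 CPM. Its pan-neuronal sum was 10700 CPM, against 10500 and 10600 CPM in E17 A and B. Its sum of glutamatergic cortical neuron markers was 2700 CPM, against 2620 and 2290 CPM. The part of these differences in the receptor levels was not tested. Without E17 C all 6 genes still rose, by 0.26 for Grm5, 0.59 for both Grm2 and Grm8, 0.8 for Grm3, 0.84 for Grm4 and 0.9 for Grm7.

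Over the whole span, P1 against E11, all 6 genes rose. Of all tested genes 82.3% changed, 40.5% rose and 41.8% fell. No member overlapped between these ages, and 41.5% of all tested genes had every P1 library above every E11 library. The rise on the log2 scale was 3.55 for Grm8, 4.61 for Grm2, 4.74 for Grm4, 5.87 for Grm3, 7.15 for Grm7 and 9.6 for Grm5, a median of 5.31 against -0.04 over all tested genes. This comparison shares its libraries with the steps above and adds no independent evidence to them.

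The make-up of the receptor counts changed with age. Within a library, the share of each gene in the summed counts of the 6 does not depend on scaling between libraries. Grm2 made up 51.3% ± 6.04 of these counts at E11, 37.6% ± 1.39 at E13, 17.7% ± 1.06 at E17 and 19.4% ± 1.58 at P1 (SD, n = 3 each). Grm5 went the other way, from 3.67% ± 1.35 at E11 through 32.1% ± 3.73 at E13 to 54% ± 1.81 at E17, and stood at 44.9% ± 1.99 at P1. No E17 library had a Grm5 share under 52.8% and no P1 library one over 46.9%. Grm3 held 22.7% ± 6.06 at E11, 11.2% ± 1.13 at E13, 17.1% ± 0.72 at E17 and 21.2% ± 0.941 at P1. Grm7 held 4.33% ± 1.03 at E11 and 9.94% ± 0.619 at P1, while Grm8 held 10.4% ± 2.88 and 1.81% ± 0.109. Grm4 held 7.66% ± 6.32 at E11, with a range of 3.56 to 14.9% and a mean of 4.02% without E11 C, and 2.8% ± 0.424 at P1.

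**Figure D3:**
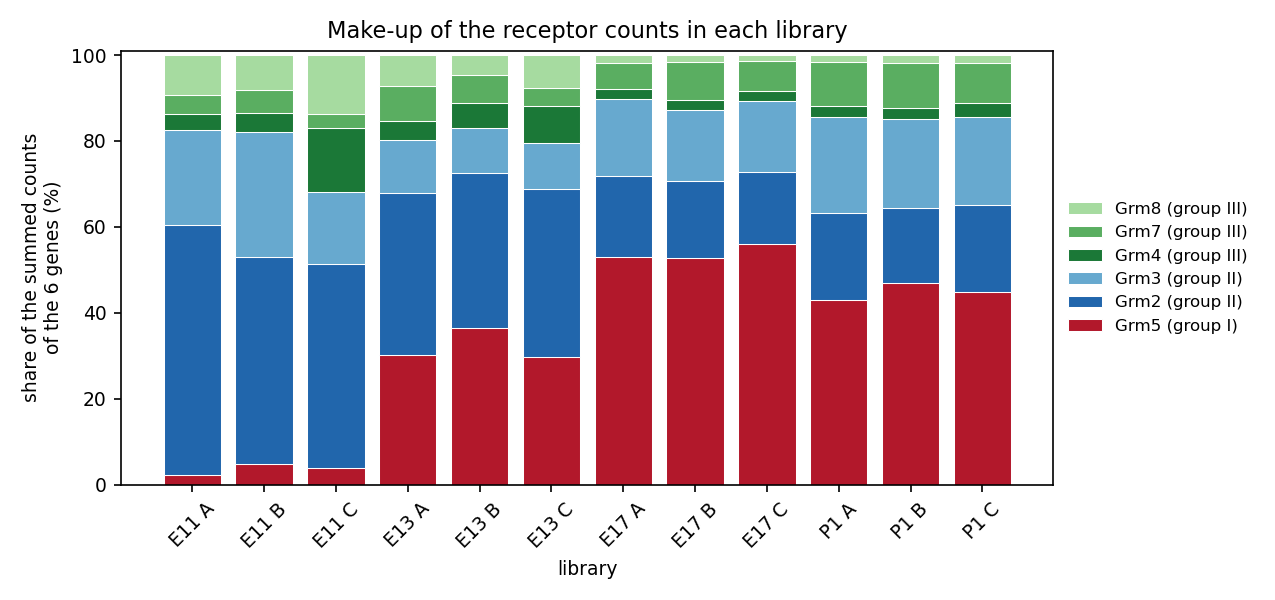
Share of each gene, in percent, in the summed counts of the 6 receptor genes, with 1 bar per library ordered by age. The Grm2 segment fills about as much of the E11 bars (47.4 to 58.2%) as the Grm5 segment does of the E17 bars (52.8 to 56.1%).

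Longer transcripts give more reads, so levels of different genes were compared per kb of annotated exon (GENCODE M21, 3.05 kb for Grm3 to 10.2 kb for Grm5). At E11 Grm2 (0.659 CPM per kb) and Grm3 (0.481 CPM per kb) led with overlapping libraries, and the other 4 genes stood at 0.0225 to 0.0721 CPM per kb. At E13 Grm2 led alone at 0.977 CPM per kb, with Grm3 (0.465) and Grm5 (0.399) overlapping behind it in the same unit. By E17 Grm3 (15.2 CPM per kb) and Grm5 (14.2) overlapped in front, followed without overlap by Grm2 (9.84), Grm7 (3.4), Grm4 (1) and Grm8 (0.437). At P1 Grm3 led at 28.4 ± 1.43 CPM per kb, Grm5 (17.9) and Grm2 (16.2) overlapped, and Grm7 (6.88), Grm4 (1.92) and Grm8 (0.746) followed without overlap. When the longest annotated transcript of each gene was used as the length, Grm5 stood above Grm3 at E17 (18.1 against 15.2 CPM per kb), and Grm3 still led at P1 (28.4 against 22.7). Grm5 (22.7) and Grm2 (16.8) then did not overlap at P1. At E13 the mean of Grm5 (0.508) then lay above that of Grm3 (0.465), with overlapping libraries. Grm8 moved most with this choice, to 0.131 CPM per kb at E11, 0.171 at E13, 0.901 at E17 and 1.54 at P1, and its E11 mean then lay above that of Grm4 (0.0936), with overlapping libraries. Per kb of annotated exon, the 2 group II genes made up 83.7% of the summed level at E11 and 61.9% at P1. The 3 group III genes made up 14.6% and 13.3%, and Grm5 1.68% and 24.8%. At E17 these shares were 56.7%, 10.9% and 32.4%. They were not worked out for the longest transcript.

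The receptors rose in a tissue whose cell types were also changing. The summed level of 10 pan-neuronal markers was 1330 to 1550 CPM in the E11 libraries, 2550 to 3050 at E13, 10500 to 10700 at E17 and 11000 to 11400 at P1. The 8 markers of glutamatergic cortical neurons summed to 367 to 429, 1130 to 1520, 2290 to 2700 and 1920 to 2030 CPM at these ages. Genes of cortical neurons were thus present at every age. Markers of GABAergic interneurons (10 genes) summed to 4.07 to 48 CPM at E11 and 435 to 466 CPM at P1. Those of the oligodendrocyte lineage (7 genes) summed to 79.3 to 88.8 CPM at E11 and 358 to 397 CPM at P1. For striatal neurons (8 genes) the sums were 10.6 to 11.6 and 79.2 to 102 CPM at E11 and P1. Astrocyte markers (7 genes) did not rise at every step. They summed to 224 to 355 CPM at E11, 484 to 501 at E13, 281 to 386 at E17 and 452 to 496 at P1. Radial glia markers (10 genes) summed to 3180 to 3280 CPM at E11 and 1010 to 1050 CPM at P1. Markers of meningeal fibroblasts (8 genes) summed to 800 CPM or more in every E11 and E13 library and to 55.1 CPM or less at E17 and P1. In each of these lists every gene had counts at every age. Choroid plexus markers (7 genes) summed to 138 to 295 CPM at E11 and 52.8 to 403 CPM at E13. They summed to 0.61 to 9.09 CPM at E17 and 1.8 to 1.94 CPM at P1. Thalamic neuron markers (6 genes) summed to 179 to 185 CPM at E11 and 55.1 to 61.1 CPM at P1. For erythroid markers (10 genes) the sums were 5740 to 16500 CPM at E11 and 45.6 to 83.9 CPM at P1. E11 C and E13 C had more counts of interneuron markers (48 and 67.9 CPM) than the other libraries of their ages (4.07 to 7.21 and 22.6 to 30.8 CPM), and they also had the highest Grm4 level of their ages. The part of these cell types in the receptor changes was not tested.

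Relative to the pan-neuronal markers, the receptors did not all move alike. Grm5 had 0.163 counts per 1000 pan-neuronal counts at E11 (range 0.0995 to 0.266), 1.46 at E13 (1.35 to 1.54), 13.7 at E17 (12.4 to 14.7) and 16.4 at P1 (15.7 to 16.8). By this ratio Grm2 stood at 2.24 at E11, 1.73 at E13, 4.55 at E17 and 7.1 at P1, with the E11 and E13 ranges overlapping. Grm3 stood at 1.03, 0.514, 4.37 and 7.77, and its E11 range (0.535 to 1.57) overlapped that of E13 (0.441 to 0.56). Grm7 stood at 0.197, 0.284, 1.89 and 3.64, again with overlapping E11 and E13 ranges (0.103 to 0.288 and 0.214 to 0.363). Grm4 had a ratio of 0.292 at E11, 0.291 at E13, 0.567 at E17 and 1.03 at P1, with the E11 range (0.159 to 0.474) overlapping that of E13 (0.197 to 0.429). The ratio of Grm8 had the narrowest span, at 0.431, 0.299, 0.409 and 0.663, and its E17 range (0.299 to 0.47) included its E11 range (0.418 to 0.443). These ratios were not tested.

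**Figure D4:**
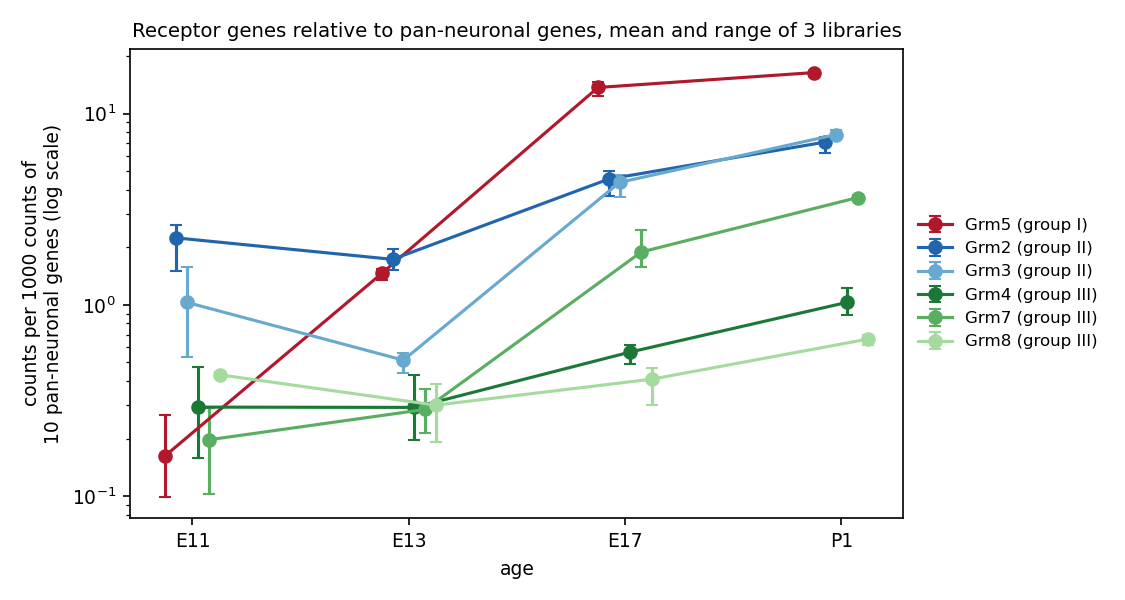
Counts of each receptor gene per 1000 counts of 10 pan-neuronal genes, on a log axis, with points at the mean of 3 libraries and bars from the lowest to the highest library. From E13 to E17 the ratio of Grm5 went from 1.46 to 13.7, while that of Grm8 went from 0.299 to 0.409.

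The genes with the most similar course were found from the root-mean-square difference between log2 CPM profiles over the 12 libraries, each centred on its own mean, among 13239 other genes of at least 1 CPM. For Grm5 these were Grin2b, an NMDA receptor subunit (difference 0.348), Tnr, the matrix protein tenascin-R (0.389), and Camk2b, a calcium-dependent kinase (0.401). Grin2b stood at 1.37, 29, 695 and 771 CPM from E11 to P1. For Grm7 they included Mctp1 (0.274) and the transcription factor Mef2c (0.302). For Grm3 they were Kcnip2, which binds A-type potassium channels (0.287), the GABA-A receptor subunit Gabrg3 (0.307) and Dbpht2 (0.317). For Grm2 they were Paqr9 (0.228), the protocadherin Pcdhac2 (0.236) and Rap1gap2 (0.241), and for Grm4 Adcy8, an adenylyl cyclase (0.243), Fam155a (0.339) and Fbxo41 (0.34). For Grm8 they were Larp6 (0.196), Ccdc116 (0.221) and Serp2 (0.222). None of the 6 receptors was among the 3 nearest genes of another. The nearest pair of receptors was Grm2 and Grm4 (0.517), then Grm3 and Grm7 (0.537), and the farthest was Grm5 and Grm8 (2.55), so the nearest pairs crossed the pharmacological groups. All genes share the 12 libraries and the strong age trend, so small differences are common and are given as a description.

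The partners of group I receptors were followed through a list of 18 genes of the Gq cascade and its scaffolds, all of them tested. From E11 to E13, 9 rose and 2 fell, and 4 fell with upper-quartile factors or library size alone. Their median change on the log2 scale was 0.25, beside 0 over all tested genes, of which 22.6% rose and 17.5% fell. Plcb1, a phospholipase C gene, rose by 1.91 and the scaffold Shank1 by 1.57, while Plcb3, another phospholipase C, fell by 0.41. From E13 to E17, 14 rose and 3 fell, with a median of 1.51 (36.8% of all tested genes rose and 37% fell). Trpc5, a cation channel downstream of Gq, rose by 3.7. The Homer proteins, which tie group I receptors to calcium stores, moved apart at this step: Homer1 rose from 49.4 to 112 CPM (log2 fold change 1.19), Homer2 fell from 114 to 59.6 CPM (-0.94) and Homer3 fell from 84.7 to 40.7 CPM (-1.06). From E17 to P1, 11 rose and 2 fell, with a median of 0.4 (24% of all tested genes rose and 25.9% fell). Trpc5 rose by 1.63, and Homer3 fell by 0.46. The log2 fold change of the calcium store channel Itpr1 was -0.24 (adjusted p = 0.0309), and its call was lost without E17 A, E17 B, P1 B or P1 C, with upper-quartile factors and in a further setting without E17 A, with an adjusted p of up to 0.2.

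For the Gi/o cascade used by groups II and III, all 19 listed genes were tested. From E11 to E13, 12 rose and 1 fell (median 0.49), beside 22.6% and 17.5% of all tested genes, and with upper-quartile factors or library size alone 11 rose and 2 fell. From E13 to E17, 17 rose and 2 fell (median 2.07), beside 36.8% and 37%. From E17 to P1, 14 rose and none fell (median 0.36), beside 24% and 25.9%. The median over all tested genes was 0, -0.04 and 0 at these steps. Kcnj3, a subunit of the potassium channels opened by Gi/o, rose by 1.74 and the adenylyl cyclase Adcy5 by 1.23 at the first step. The alpha subunit gene Gnai2 fell by 0.36 at the first step and by 0.94 at the second. At the second step Gnai3 fell by 0.39, the cyclase Adcy1 rose from 42.5 to 613 CPM (log2 fold change 3.85) and Adcy8 rose by 2.88. Gnao1, an alpha subunit gene abundant in brain, rose from 399 to 779 CPM (0.97). At the last step the potassium channel subunits Kcnj6 and Kcnj9 rose by 1.47 and 1.43. Gnao1 and Homer1 lie outside the naming rule and were chosen after their values were seen.

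The list of proteins that bind, anchor or switch off the receptors had 18 tested genes. At the first step 5 rose and 2 fell (median 0.07), a share near that of all tested genes, of which 22.6% rose and 17.5% fell. At the second 13 rose and 1 fell (median 0.77), beside 36.8% and 37%, and at the last 10 rose and 2 fell (median 0.3), beside 24% and 25.9%. Elfn2 and Elfn1 encode adhesion proteins that bind group III receptors across the synapse. Elfn2 rose from 1.22 to 11.3 CPM between E11 and E13 (log2 fold change 3.2), and Elfn1 from 2.35 to 21.8 CPM between E13 and E17 (3.22). RGS proteins speed the end of G protein signals. Of these, Rgs4 rose by 1.67 at the first step and Rgs7 by 3.85 at the second and 0.99 at the last, while Rgs16 fell by 0.67 at the last. Grasp, which encodes the group I anchor tamalin, fell by 0.76 at the first step, and the receptor kinase gene Grk3 rose by 0.75 at the last. The log2 fold change of Rgs2 was -0.39, -0.37 and -0.39 at the 3 steps. Its first call was lost without E11 B or E13 B, its second without E13 A, without E13 C or with E17 A and the C libraries of E11 and E13 all left out, and its last without E17 B or P1 B, with an adjusted p of up to 0.105.

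Glutamate, and the peptide NAAG that acts on Grm3, were represented by 14 genes of transport, synthesis and breakdown, all tested. At the first step 9 rose and 1 fell (median 0.55), beside 22.6% and 17.5% of all tested genes. At the second 8 rose and 3 fell (median 0.73), beside 36.8% and 37%, and at the last 8 rose and 1 fell (median 0.45), beside 24% and 25.9%. The neuronal glutamate transporter Slc1a1 rose by 3.47 and then 2.54 on the log2 scale, reaching 77.3 CPM at E17. The vesicular transporter Slc17a7 rose by 1.72 between E11 and E13, and Slc17a6 fell by 0.53 between E17 and P1, from 53.1 to 36.8 CPM. Slc17a8, the third vesicular transporter, fell by 1.75 from E13 to E17 and rose by 3.03 from E17 to P1. Slc1a6, a transporter best known from Purkinje cells, fell by 1.67 at the first step and rose by 2.21 at the second. The cystine/glutamate exchanger Slc7a11, a source of glutamate outside synapses, fell from 11.5 to 1.7 CPM between E13 and E17 (log2 fold change -2.79) and rose to 5.83 CPM at P1 (1.81). Over the same step from E13 to E17 the meningeal fibroblast markers went from 800 to 1090 CPM down to 14.5 to 16.9 CPM, and their part in the change of Slc7a11 was not tested. The NAAG synthetase gene Rimkla rose by 1.18 and 1.17 at the first 2 steps, and NAAG peptidase gene Folh1 stood at 0.111, 0.162, 0.493 and 1.23 CPM without passing at any single step. Rimkla and Folh1 were named after their values were seen.

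**Figure D5:**
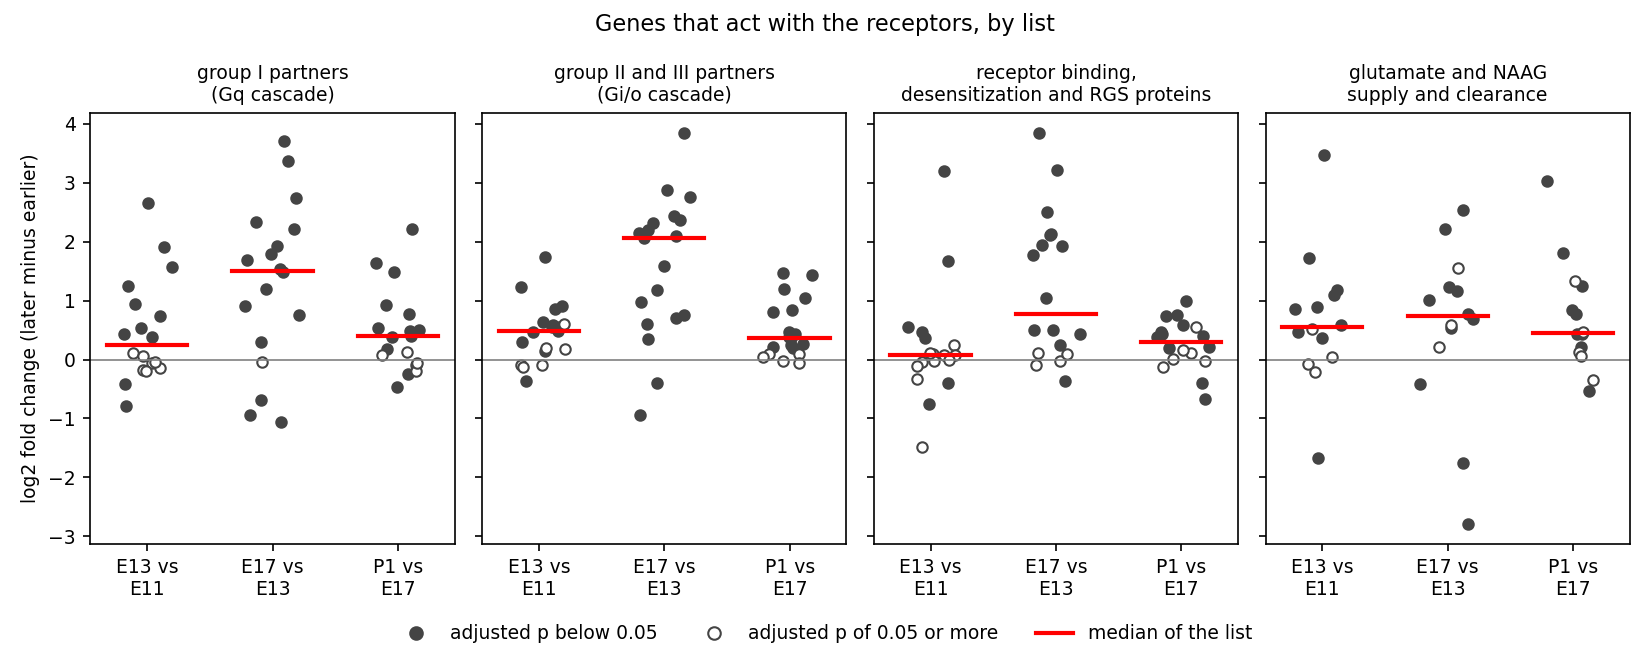
Log2 fold change of each gene of the 4 partner lists from edgeR at the 3 steps, later minus earlier, with filled symbols past the threshold, open symbols not past it and a red line at the list's median. The medians are highest at the step from E13 to E17, at 1.51, 2.07, 0.77 and 0.73 from left to right, and genes below 0 are present in every panel.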

How the data were processed

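Libraries were made with the TruSeq Stranded mRNA kit from 1 µg of total RNA and sequenced as single reads, per the labels' protocols. The deposited values are raw read counts per Ensembl gene, with no normalization by the authors. Tools listed in the submitters' processing notes are STAR 2.5.2b, HTSeq 0.5.3, SAMtools, DESeq2 1.8.1 and bcl2fastq 2.18, without their roles. Build, annotation and strandedness of the counting were not given in the sources used here. How reads of overlapping genes were assigned is therefore not known. Symbols were matched through a GENCODE table for 50376 of 50600 identifiers.

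Tests used edgeR 4.0.16 under R 4.3.3. Genes were kept by filterByExpr at a minimum count of 10 (17847 genes), scaled by TMM (factors 0.92 to 1.094) and fitted by robust quasi-likelihood over all 12 libraries, each age having its own coefficient. Two-sided p-values were adjusted across the 17847 genes by the Benjamini-Hochberg method, with a threshold of 0.05. Errors of fold changes are Wald standard errors, and 95% intervals use the moderated degrees of freedom. With 3 libraries per age the spread is shared between genes and ages. Libraries of the same age differed by a chi-squared of 10.23 to 29.81 per degree of freedom, so none was a copy. Levels per kb use the union of annotated exons (GENCODE M21), which may differ from the authors' annotation. The pipeline was run on simulated counts for P1 against E17 alone, so that run does not bear on the comparisons with E11.

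The members, the 4 partner lists (69 genes) and the 15 marker lists were chosen with earlier results of these data known. Named from each partner list and step were the 2 largest rises and falls past the threshold with at least 1 CPM at 1 age, and for each receptor the 3 most similar genes, leaving out predicted transcripts. Some genes that these rules name are not reported here. Alternatives were other scalings (RLE, upper quartile, library size alone), other filters, a replicate block by letter, a fit to the compared ages only, limma-voom (limma 3.58.1), DESeq2 1.42.0 and each library left out. Leaving out 3 libraries at once (E17 A with the C libraries of E11 and E13), and the length of the longest transcript, were chosen after seeing the data.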

Additional observations from a re-analysis of the deposited data

How the results depend on the processing

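All 6 receptor genes rose in E17 against E13, P1 against E17 and P1 against E11 in each of the 22 alternatives run, and all 6 differed across the 4 ages in each of 21. In E13 against E11 the count moved between 2 and 4. Grm5 and Grm7 kept their calls in all 22, with log2 fold changes of 3.87 to 4.57 and 1.21 to 1.77. The call of Grm2 was lost in 8: with no low-count filter (adjusted p = 0.112), with only the libraries of these ages (0.0561), in limma-voom (0.128), without E11 B, E11 C, E13 B or E13 C, and with E17 A and the C libraries of E11 and E13 all left out (log2 fold change 0.29, adjusted p = 0.273). Grm4 gained a call in DESeq2 (adjusted p = 0.0335), without E11 C and without E13 A. Grm3, not called, changed sign in limma-voom (log2 fold change 0.03) and without E11 B (0.29, adjusted p = 0.381); in the other settings it lay between -0.36 and -0.02, and without E11 C it was -0.33. Of 528 values of single receptors, 515 kept their direction and call. The total of changed genes in a partner list, rises and falls together, stayed within 1.5 times its main value in all 64 counts under the other scalings or without those 3 libraries. The small counts of falls moved more: with upper-quartile factors or library size alone 4 Gq genes and 2 Gi/o genes fell from E11 to E13, against 2 and 1. From E17 to P1, 1 Gq gene fell with upper-quartile factors or without the 3 libraries, against 2, and from E13 to E17 no receptor-binding gene fell without them, against 1. With the longest transcript as the length, 12 of 24 levels per kb moved by more than 1 SD. Scaling by library size alone shifted the median log2 fold change of all genes by -0.185 in E17 against E13 and by -0.229 in P1 against E11, while the receptor changes at those steps were at least 2.2 and 3.33 in all alternatives. The share of rises among changed genes in E17 against E13 was then 39.8%, against 49.8%.

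The letters A, B and C are not said to mark litters shared between ages, and deviations from the age means correlated at -0.343 to 0.33 between libraries of the same letter, with 4 of 18 pairs over 0.1. Between libraries of different letters and ages the correlations were -0.342 to 0.315. Of 12 libraries, 5 correlated best with a library of their own letter. With the letter as a replicate block, 3 receptors changed from E11 to E13 and 6 at each later step, as without it. Counts of 5 to 23 per library for Grm4, Grm5, Grm7 and Grm8 at E11 limit the precision of their fold changes from that age.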
